A study of Mus musculus with 55 samples.

Results

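The cytosolic ribosomal protein genes are the nuclear genes for the proteins of the large (RPL) and small (RPS) ribosomal subunit. All features of the deposited tables whose symbol is RPL or RPS followed by a number, with or without a final A, L or X, were taken, together with RPLP0, RPLP1, RPLP2 and RPSA, which gave 80 of 15728 symbols. Of these, 49 belong to the large and 31 to the small subunit. They were followed across 55 MARS-seq libraries, a protocol that reads the 3′ ends of transcripts, made from RNA of sorted mouse bone marrow cells in a study of bone metastasis. Granulocytes, CD4+ T helper cells, CD8+ T cytotoxic cells and CD4+CD25+ regulatory T cells (Treg) came from normal marrow, from marrow at the early metastatic stage, and at the late metastatic stage from peripheral marrow and from the metastatic core of the same mouse. In the order normal, early, late peripheral and late core, granulocytes and CD4 cells had 4, 4, 4 and 3 libraries, CD8 cells 4, 4, 2 and 2, and Treg 4, 3, 3 and 3. Strain, age, sex and the tumour cells injected are not given in the labels used here. The core granulocytes carry bone marrow as their tissue label and were placed in the core by their titles. The labels do not say that the libraries of a group come from separate animals, so the p-values below measure the spread between libraries, which may be technical.

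Ribosomes read mRNA on the small subunit and join amino acids on the large subunit, and each needs its proteins in about equal number. Their mRNAs are among the most abundant of a growing cell, and in mammals many start with a C followed by a run of pyrimidines, the terminal oligopyrimidine (TOP) element through which the kinase mTOR sets their translation. Resting lymphocytes raise ribosome production when activated, whereas granulocytes lose most of their protein synthesis capacity as they mature. The 30 bases around the RefSeq transcription start (mouse GRCm38.p6, gene strand, 5′ to 3′) are shown for genes that carry the results below, 6 of them with a run of at least 5 bases that starts with C, holds only C or T and begins within 5 bases of the start. The capitals mark that run, and RPLP0 and RPSA are shown because none was found within 5 bases of their annotated start. RPS6 lies at chr4:86857353-86857382 (minus strand), RPS9 at chr7:3704026-3704055 (plus), RPLP2 at chr7:141447636-141447665 (plus), RPL12 at chr2:32961697-32961726 (plus), RPS23 at chr13:90923107-90923136 (plus), RPS2 at chr17:24720048-24720077 (plus), RPLP0 at chr5:115559452-115559481 (plus) and RPSA at chr9:120127751-120127780 (plus).
RPS6: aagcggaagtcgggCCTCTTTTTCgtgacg
RPS9: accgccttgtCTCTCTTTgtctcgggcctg
RPLP2: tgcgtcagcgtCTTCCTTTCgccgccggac
RPL12: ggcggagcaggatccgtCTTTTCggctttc
RPS23: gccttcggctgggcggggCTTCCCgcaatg
RPS2: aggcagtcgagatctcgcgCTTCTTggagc
RPLP0: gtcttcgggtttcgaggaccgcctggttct
RPSA: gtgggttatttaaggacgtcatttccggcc
Of the 60 ribosomal protein genes with a RefSeq promoter entry, 28 (46.7%) hold such a run, against 21.1% of 26965 other genes searched in the same way on the gene strand. A match is a string in the annotated sequence and says nothing of its use in these cells. A missing match depends on the annotated start and does not show that the mRNA lacks a TOP element.

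Recovered reads per library ran from 357058 to 1633022 in granulocytes, 68263 to 876798 in CD4, 43224 to 1148806 in CD8 and 90075 to 429903 in Treg, and the 80 genes held between 10657 and 421235 of them. Transcripts of lung genes (SFTPC, SCGB1A1 and others), which none of the sorted cells should hold, reached a summed value over 100 in 24 of 55 libraries. These are the libraries with lung transcripts below. The other 31 are called without lung transcripts, although they too held some of these reads, at a summed value of at most 82.4. The class with lung transcripts is not spread evenly over the groups: it takes in 2 of 4 normal CD8 libraries and none of the 4 early ones. The normal Treg libraries held FOXP3, the defining Treg factor, at 0 to 7.56 CPM (recovered reads scaled to 1000000 per library) against 24.9 to 38.3 CPM in normal CD4 cells, and the macrophage complement gene C1QA at 9007 to 10110 CPM against 178 to 471 CPM. The label Treg is kept below for these sorted cells. In such bulk RNA, fewer cells of a type and less RNA per cell cannot be told apart.

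Ribosomal protein genes took a share of the reads that set the populations far apart. In normal marrow they made up 3.68% ± 0.376 of granulocyte reads (SD, n = 4), 18.2% ± 3.86 of Treg reads (n = 4), 26.7% ± 0.423 of CD4 reads (n = 4) and 37.5% ± 1.65 of CD8 reads (n = 4). The normal granulocyte libraries (3.16 to 3.97%) lay below every T cell library of the study, and the normal CD8 libraries (35.5 to 39.3%) above every normal CD4 library (26.2 to 27.1%). The granulocyte share was 0.138 times that of CD4 cells, and 0.213 times when the 20 most abundant other features were left out, a set that takes in granule genes. The small subunit held a median of 50.7% of the ribosomal protein reads in granulocytes (range 48.5 to 52.6%), against 45.6% in CD4, 46.2% in CD8 and 45.5% in Treg. These shares are descriptions and carry no test.

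**Figure D1:**
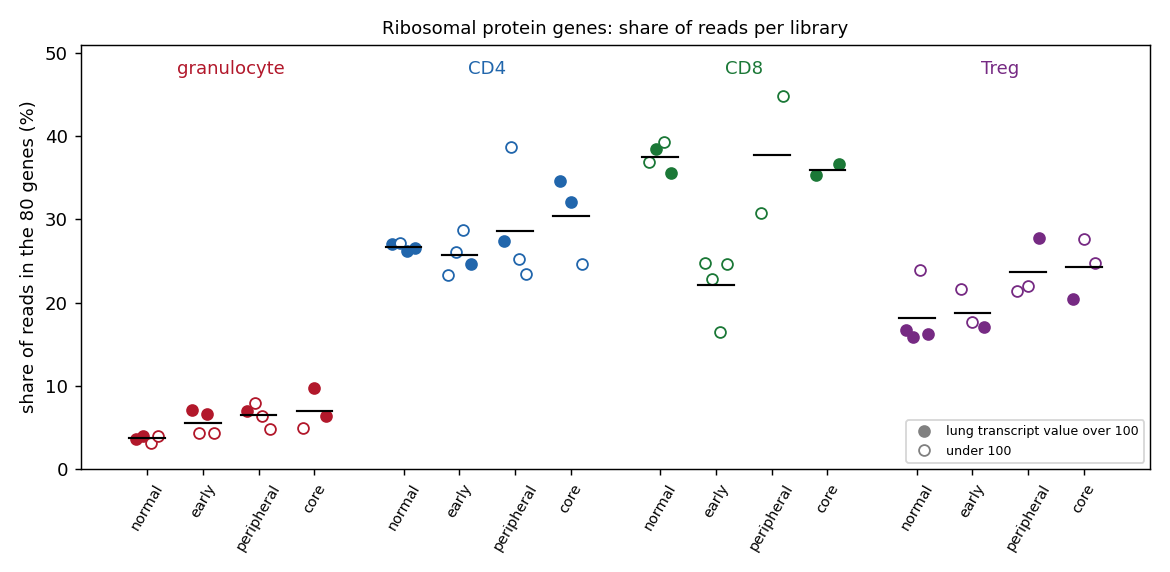
Share of each library's reads in the 80 ribosomal protein genes (%, y axis) by population and stage (x axis), 1 point per library, with a bar at the group mean. Filled points mark libraries with a lung transcript value over 100. Granulocyte libraries lie between 3.16 and 9.70% and T cell libraries between 15.9 and 44.8%.

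Gene by gene, granulocytes held less of nearly every ribosomal protein mRNA than CD4 cells at each stage. A limma fit over all 55 libraries on log2 of the deposited value plus 4, with an adjusted p under 0.05 as the threshold, tested 71 of the 80 genes. In normal marrow 64 were lower in granulocytes and 0 higher, where 24.5% of all 6498 features were lower and 24.4% higher. Their median difference was -2.0 on the log2 scale, against -0.11 over all features. RPL10, which joins the large subunit late in its assembly, stood at 162 CPM in granulocytes and 1979 CPM in CD4 cells (log2 -2.65 ± 0.21 SE, adjusted p = 8.86e-16). RPL12, a protein of the base of the stalk that recruits elongation factors, stood at 235 against 5578 CPM (-3.62). RPL10A (-3.30), RPS28 (-2.88) and RPL14 (-2.81) followed. With CPM in place of the deposited scaling, the median difference of all features moved to -0.62 and that of the ribosomal protein genes to -2.86, with 67 lower, while the calls over all features went from 1583 higher and 1591 lower to 856 and 2651.

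The gap stayed at the later stages. Granulocytes were lower in 61 genes at the early stage (median -1.46; 26% of all features lower), in 64 in late peripheral marrow (median -1.65; 27.4%) and in 60 in the core (median -1.52; 20.1%). RPL14 and RPL36, both of the large subunit, were among the 5 smallest p-values of each of these 3 comparisons. The exceptions in the opposite direction were RPS9 and RPL3L, against 25.7% of all features called higher in granulocytes at the early stage, 23.4% in peripheral marrow and 16.6% in the core. RPS9, of the small subunit, differed by -0.24 in normal marrow (adjusted p = 0.32) and by 0.75 at the early stage (adjusted p = 0.000841). That last direction depends on the scaling: the same early libraries held 4766 CPM in granulocytes and 5407 CPM in CD4 cells, and the test on CPM gave -0.19 (adjusted p = 0.373). RPL3L, a paralogue of RPL3 known from striated muscle, was called higher in granulocytes at the early stage (14.4 against 2.42 CPM, log2 1.3 ± 0.28, adjusted p = 8.2e-05), in peripheral marrow (10.4 against 4.83 CPM, adjusted p = 0.0266) and in the core (12.1 against 0.443 CPM, adjusted p = 0.00139). These RPL3L levels rest on few reads, 188 over all libraries, and the peripheral call was lost on CPM (adjusted p = 0.149). The early and peripheral RPL3L calls did not hold without the libraries with lung transcripts (adjusted p = 0.0714 and 0.209). In the core that left 1 library of each population.

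Between the T cell populations the differences were smaller. Of 71 genes, 16 were higher in CD8 than in CD4 cells of normal marrow and 0 lower (1.15% and 1.49% of all features), with a median of 0.76. RPL9, a large subunit protein, stood at 3466 against 1798 CPM (log2 1.21 ± 0.26, adjusted p = 0.00444). RPS19, the small subunit protein mutated in human Diamond-Blackfan anaemia, stood at 11276 against 6084 CPM (1.12, adjusted p = 0.0099). RPL36A (1.25), RPS7 (1.09) and RPL23 (1.08) also passed. The count fell to 5 without CD4 normal replicate 1, to 3 without CD8 normal replicate 3, and to 9 without CD4 normal replicate 3 or CD8 normal replicate 2 or 4. Without the libraries with lung transcripts, which left 2 CD8 libraries and 1 CD4 library, the median was 0.77. With the libraries with lung transcripts alone the count was 26. At the early, peripheral and core stages limma called 0 genes between CD8 and CD4 cells, where 0.308%, 0.0308% and 0.631% of all features were called higher and 0.369%, 0% and 0.139% lower. At an unadjusted p under 0.05, 6 members were lower at the early stage (8.6% of all features lower at that threshold), 25 higher in peripheral marrow (2.72% higher) and 16 higher in the core (3.23% higher). edgeR and limma-voom also called 0 at these stages, and DESeq2 called 1 lower at the early stage and 0 at the others.

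Treg libraries of normal marrow held less of 9 genes than CD4 libraries and more of 0 (3.89% and 8.53% of all features), with a median of -0.39. RPS9 stood at 3296 against 5911 CPM (log2 -0.75 ± 0.19, adjusted p = 0.00407) and RPL19, of the large subunit, at 2097 against 4215 CPM (-0.90, adjusted p = 0.0052). RPS14 (-0.92), RPL31 (-0.78) and RPLP2 (-0.75), an acidic stalk protein, were lower as well. Treg normal replicate 3 stood apart from the other 3 in its share of ribosomal protein reads, at 24.0% against 15.9 to 16.7%. It was also the only one of the 4 under the lung transcript limit. Without it 17 genes were lower. Without CD4 normal replicate 1 or 2 the count was 5, without CD4 normal replicate 3 or Treg normal replicate 1 or 2 it was 4, and without Treg normal replicate 4 it was 3. Without the libraries with lung transcripts, Treg normal replicate 3 was compared with 1 CD4 library, at a median of -0.08. Macrophage markers (11 of 12 in the files) summed to 25204 to 28682 CPM in normal Treg and 1072 to 1913 CPM in normal CD4 libraries, and their part in the result was not tested. At the early, peripheral and core stages limma, edgeR, DESeq2 and limma-voom all called 0 genes between Treg and CD4 cells, where limma called 3.66%, 0.477% and 0% of all features higher and 1.49%, 0.4% and 0% lower. At an unadjusted p under 0.05, 8 members were lower at the early stage (7.2% of all features lower at that threshold), 1 in peripheral marrow (7.42%) and 12 in the core (4.4%), where 1 was higher (3.62%).

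In granulocytes the share of ribosomal protein reads was higher in every group of metastatic marrow than in normal marrow. It was 5.58% ± 1.47 (SD, n = 4) at the early stage, 6.53% ± 1.35 (n = 4) in late peripheral marrow and 7.02% ± 2.45 (n = 3) in the core, which is 1.52, 1.77 and 1.91 times the normal 3.68%. The lowest library of metastatic marrow (4.30%) lay above the highest normal library (3.97%). Without the 20 most abundant other features the ratios to normal were 1.45, 1.49 and 1.75. On the sum of deposited values they were 1.62, 1.48 and 1.90, so the order of the early and peripheral groups depends on the measure. The ratio varied with the lung transcripts: without those libraries it was 1.22, 1.79 and 1.39, and with them alone 1.80, 1.84 and 2.12. The 1.39 rests on 1 core library and the 1.84 on 1 peripheral library. The 2 early libraries with lung transcripts held 6.57 and 7.10%, and the 2 without held 4.30 and 4.34%. Mouse numbers are in the names of the deposited tables and not in the labels. By these numbers, in the 3 mice sampled at both late sites, the core held less than peripheral marrow in mouse 6 (4.92 against 7.0%), more in mouse 7 (9.70 against 7.99%) and about as much in mouse 10 (6.42 against 6.33%).

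RPLP0, the protein that anchors the stalk of the large subunit (chr5:115559467-115563727 in GRCm38, plus strand), had the smallest p of all members in each of the 3 comparisons of granulocytes with normal marrow. Its level was 714, 1022, 734 and 855 CPM in the normal libraries, 2105, 1690, 2084 and 1475 CPM in the early ones, 2065, 2158, 2402 and 1773 CPM in the peripheral ones and 1528, 2481 and 1837 CPM in the core. Every library of metastatic marrow lay above every normal library. RPLP0 rose by 1.19 ± 0.20 (log2 ± SE, adjusted p = 0.00218) at the early stage, by 1.09 ± 0.20 (adjusted p = 0.003) in peripheral marrow and by 1.24 ± 0.22 (adjusted p = 0.00112) in the core. These 3 comparisons share the 4 normal libraries.

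RPSA, a small subunit protein also known as a laminin receptor, was at 950, 1068, 634 and 835 CPM in normal granulocytes and at 3549, 1420, 2897 and 1463 CPM at the early stage. Its late levels were 2793, 3289, 2988 and 1748 CPM in peripheral marrow and 1860, 3913 and 3389 CPM in the core. The normal libraries did not overlap the others, and within the early group replicates 1 and 3, the 2 libraries with lung transcripts, were higher than replicates 2 and 4. The change was 1.37 ± 0.33 (adjusted p = 0.0199) at the early stage, 1.37 ± 0.33 (adjusted p = 0.0173) in peripheral marrow and 1.79 ± 0.36 (adjusted p = 0.00305) in the core. RPL10A, of the large subunit's mobile stalk, went from 61.7 to 76.2 CPM in normal libraries to 104 to 230 CPM at the early stage, 160 to 323 CPM in peripheral marrow and 160 to 517 CPM in the core (log2 1.17, 1.51 and 1.79).

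Over all members, 8 of the 67 tested rose in early granulocytes and 0 fell, against 3.05% and 1.73% of all 3808 features, and the median change was 0.47 against 0.00 over all features. Besides RPLP0, RPSA and RPL10A these were RPS28 (225 to 505 CPM, log2 1.14 ± 0.26, adjusted p = 0.0143), RPS9 (2704 to 4766 CPM, 0.86 ± 0.20, adjusted p = 0.015), RPS20 (1.00), RPS12 (1.2) and RPL12 (1.10). The acidic stalk proteins RPLP1 (0.98, adjusted p = 0.0531) and RPLP2 (0.66, adjusted p = 0.0594) did not pass, nor did RPL10 (0.60), RPS6 (0.21), the small subunit protein phosphorylated downstream of mTOR, or the X-linked RPS4X (-0.07). At an unadjusted p under 0.05, 30 members were higher (8.46% of all features at that threshold) and 0 lower. The count of 8 rested on few libraries: it was 4 without normal replicate 1, 5 without normal replicate 2, 1 without normal replicate 3, 2 without normal replicate 4 or early replicate 1, 3 without early replicate 3 and 13 without early replicate 4. Without the libraries with lung transcripts 2 rose and 1 fell, where 100 of all features were higher and 39 lower. With lung transcripts as a term 21 rose, where 153 features were higher and 88 lower.

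In late peripheral marrow 9 members rose and 0 fell (3.83% and 4.31% of all features), with a median of 0.46 against -0.01. To RPLP0, RPL10A, RPSA, RPS28 (1.05) and RPS12 (1.34) were added RPL12 (1.19), RPLP2 (0.73, adjusted p = 0.0262), RPL23 (0.98) and RPL28 (0.70), whereas RPS9 (0.61, adjusted p = 0.0637) missed the threshold. On CPM the median of all features moved to 0.19 and 19 members rose. The count was 5 without normal replicate 2 or 4, 2 without normal replicate 3, 15 without early replicate 1, which enters the shared error, 4 without peripheral replicate 2 and 3 without peripheral replicate 3. Without the libraries with lung transcripts 20 rose and 1 fell, where 204 of all 3808 features were higher and 196 lower. With lung transcripts as a term 24 rose, where 182 features were higher and 257 lower. With the libraries with lung transcripts alone 1 peripheral library was left, and the median was 0.57.

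Core granulocytes had the most calls of the 3 comparisons, with 32 of 67 members higher and 0 lower (6.07% and 6.49% of all features) and a median of 0.84 against -0.07. The stalk proteins all rose, RPLP0 as given above, RPLP1 by 1.33 (adjusted p = 0.00764) and RPLP2 by 1.06 (adjusted p = 0.00275). So did RPS28 (1.44), RPL41 (1.26), RPL12 (1.48), RPL10 (0.92, adjusted p = 0.0235) and RPS9 (0.71, adjusted p = 0.0346). RPS6 (0.83, adjusted p = 0.32), RPS4X (0.93, adjusted p = 0.38) and RPS27L (0.56, adjusted p = 0.23), a paralogue of RPS27 induced by p53, did not pass. The count was 19 without normal replicate 2, 14 without normal replicate 3 or core replicate 2, 16 without normal replicate 4 and 13 without core replicate 3. Without the libraries with lung transcripts 1 core library was left, and the median was 0.64. With the libraries with lung transcripts alone 10 rose, where 80 of all 3808 features were higher and 30 lower. Granulocyte markers (11 of 14 in the files) summed to 233494 to 385839 CPM in normal and 186256 to 302959 CPM in core granulocytes, and macrophage markers to 272 to 382 CPM and 546 to 771 CPM. In early and peripheral granulocytes the granulocyte markers summed to 191836 to 340245 CPM and 135071 to 245234 CPM. Macrophage markers there summed to 277 to 396 CPM and 253 to 388 CPM. T cell markers (11 of 15 in the files) summed to 503 to 627 CPM in normal granulocytes and to 95.9 to 279 CPM in those of metastatic marrow. The part of these markers in the result was not tested. Between core and peripheral marrow limma, edgeR, DESeq2 and limma-voom called 0 members (1.55% of all features higher, 0.131% lower), with 8 higher at an unadjusted p under 0.05 (5.49% of all features) and a median of 0.35.

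Other genes of translation were tested in the same granulocyte comparisons, against the shares of all features given above. Of 30 translation factors 2 rose at the early stage, TPT1 (902 to 2013 CPM, log2 1.22 ± 0.25, adjusted p = 0.00889), itself a TOP mRNA, and EIF4EBP1 (430 to 851 CPM, 1.04 ± 0.21, adjusted p = 0.00676), which blocks cap-dependent initiation until mTOR phosphorylates it. Both also passed in peripheral marrow (0.93 and 0.85) and not in the core, where 0 of 30 were called. POLR1A, the largest subunit of RNA polymerase I, fell by 0.92 at the early stage and by 1.19 in the core, the only change among 8 ribosome biogenesis genes tested. Of 12 regulators of mTOR, MYC and p53 signalling 0 were called at the early stage or in peripheral marrow, and in the core CDKN1A rose and MLST8, an mTOR complex subunit, fell by 1.32. MRPL52, of the mitochondrial ribosome, was the only one of 38 mitochondrial ribosomal protein genes to rise at each stage (1.90, 1.09 and 1.63).

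CD8 cells of early metastatic marrow showed the opposite change. Their share of ribosomal protein reads was 22.2% ± 3.89 (SD, n = 4) against 37.5% ± 1.65 (n = 4) in normal marrow, 0.591 times as much, and the highest early library (24.7%) lay below the lowest normal library (35.5%). Of 69 members tested 51 fell and 0 rose, against 3.52% and 1.33% of all 4891 features, and the median change was -0.96 against -0.10 over all features. Members of both subunits were among the smallest p-values.

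RPS23, which lies at the decoding centre of the small subunit (chr13:90922958-90924950, plus strand), held 2051, 1837, 2127 and 2259 CPM in the normal and 791, 700, 615 and 486 CPM in the early CD8 libraries. It fell by 1.85 ± 0.24 (log2 ± SE, adjusted p = 0.000705). RPS16 (chr7:28350652-28353155, plus strand) held 4800, 6188, 5106 and 4871 CPM against 2338, 2063, 1254 and 1712 CPM, a fall by 1.71 (adjusted p = 0.000877). The groups did not overlap for either gene. RPL12 held 8084, 9616, 9742 and 8858 CPM against 4016, 3251, 3146 and 3517 CPM and fell by 1.56 (adjusted p = 0.00211).

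RPL3, next to the peptidyl transferase centre, fell by 1.37 and RPL9 by 1.33. RPSA (-1.0), RPS6 (-1.66), RPS4X (-1.52), RPLP0 (-0.77), RPLP1 (-0.88), RPLP2 (-0.98) and RPL10 (-0.82, adjusted p = 0.049) all passed, and the largest change among the called members was that of RPL35A (380 to 92.3 CPM, -2.41, adjusted p = 0.0135). RPS9 (-0.49, adjusted p = 0.16) and RPL28 (-0.17) of the well-covered members did not pass, nor did RPS27L (-0.13) or RPL22 (-0.04), a protein needed for alpha-beta T cell development in mice. RPS2 had the largest estimate of the members (-3.80 ± 1.5) and did not pass (adjusted p = 0.19).

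Cell markers moved with this change. Granulocyte markers summed to 3407 to 19623 CPM in the normal and 18169 to 117127 CPM in the early CD8 libraries, T cell markers to 4946 to 6104 CPM and 2545 to 3435 CPM, while CD8A itself lay at 82.4 to 179 CPM and 92.1 to 116 CPM. Their part in the result was not tested. Early replicate 3, which held most granulocyte marker reads, also had the lowest ribosomal protein share (16.5%). Without it 48 members fell, and the ratio of shares was 0.641. The count was 21, 19 and 23 without normal replicate 2, 3 or 4. Read depth also set the groups apart, at 43224 to 144170 recovered reads in the early and 191341 to 485133 in the normal libraries. Without libraries under 100000 reads 28 members fell, and the part of depth in the result was not tested. No early CD8 library passed the lung transcript limit of 100. Against the 2 normal libraries under that limit the median was -1.0, with 0 members and 0 features called. With lung transcripts as a term 2 members were called of 8 features in all. TMM scaling moved the median of all features to -0.27, that of the members to -1.18 and the count to 60.

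Translation factors fell in the same CD8 comparison, 7 of 33 with 0 rising: TPT1 by 1.58 (4770 to 1768 CPM, adjusted p = 0.00424), and the elongation factor subunits EEF1B2 by 1.37, EEF1G by 1.53 and EEF1A1 by 1.14. RPL22L1, the paralogue of RPL22, fell by 1.21 as 1 of 5 ribosomal proteins outside the symbol rule. Of 17 signalling regulators MYC, which drives ribosomal gene transcription, fell by 1.95 (88.1 to 17.9 CPM, adjusted p = 0.00706) and SESN1, an inhibitor of mTOR complex activity, by 2.11. None of 35 ribosome biogenesis genes and none of 57 mitochondrial ribosomal protein genes passed.

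In CD8 cells of the late stage (n = 2 at each site) the shares were 30.8 and 44.8% in peripheral marrow and 35.3 and 36.7% in the core. The peripheral libraries lay on either side of the normal range and both core libraries near its lower end. limma, edgeR, DESeq2 and limma-voom called 0 members against normal marrow in peripheral marrow (0% of all features in either direction; 0 at an unadjusted p under 0.05; median -0.06) and in the core (0.92% higher and 0.266% lower; 1 higher at an unadjusted p under 0.05, against 5.72% of all features; median 0.10). Between the 2 sites they also called 0 (1.14% higher, 0.123% lower; 1 higher at an unadjusted p under 0.05, against 8.3%).

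In CD4 cells few members were called. The share was 25.7% ± 2.33 (SD, n = 4) at the early stage, 28.7% ± 6.86 (n = 4) in peripheral marrow and 30.4% ± 5.23 (n = 3) in the core, each range taking in the normal mean of 26.7%. With limma 0 of 69 members passed at the early stage (0% of all 4534 features called; 0 at an unadjusted p under 0.05), 0 in peripheral marrow (0% called; 5 higher at an unadjusted p under 0.05, against 5.54% of all features) and 0 between core and peripheral marrow (1.59% higher, 0.419% lower; 1 higher at an unadjusted p under 0.05, against 6.82%). edgeR, DESeq2 and limma-voom gave 0 in these 3 comparisons as well. Against normal marrow the core had 1 member higher and 0 lower (2.01% and 1.79% of all features): RPL7, of the large subunit, at 1395, 1809 and 1502 CPM against 490, 785, 644 and 1318 CPM. The core libraries lay above all normal ones, and RPL7 rose by 1.14 ± 0.29 (adjusted p = 0.0246). NPM1, a nucleolar chaperone of ribosome assembly, rose with it (43.5 to 137 CPM, 1.59 ± 0.40, adjusted p = 0.0236), as 1 of 33 ribosome biogenesis genes. The call on RPL7 was lost without normal replicate 1, 2 or 3 or core replicate 1 or 2 (adjusted p = 0.0583 to 0.17). The core count also varied with the lung transcripts: with those libraries alone 15 members were higher, at a median of 0.55, and without them 0, at a median of -0.13 (1 library in each group).

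Treg libraries held 18.8% ± 2.49 (SD, n = 3) at the early stage, 23.7% ± 3.57 (n = 3) in peripheral marrow and 24.3% ± 3.66 (n = 3) in the core against 18.2% ± 3.86 (n = 4) in normal marrow. The late ranges (21.4 to 27.8% and 20.4 to 27.7%) lay above 3 of the 4 normal libraries and took in the fourth. At the early stage limma, edgeR, DESeq2 and limma-voom called 0 of 68 members (0.0835% of all features in either direction; 0 at an unadjusted p under 0.05). In peripheral marrow 1 member was higher and 0 lower (0.271% and 2.25%), RPL28 of the large subunit, at 7123, 7025 and 5854 CPM against 3027, 2998, 5107 and 3311 CPM. The groups did not overlap, and RPL28 rose by 0.95 ± 0.24 (adjusted p = 0.04). In the core 1 was higher and 0 lower (1.77% and 4.46%), RPL19, at 2735, 4352 and 4049 CPM against 1883, 1952, 2682 and 1871 CPM. These groups were separated by little, and RPL19 rose by 0.78 ± 0.21 (adjusted p = 0.0323). At an unadjusted p under 0.05, 20 members were higher in peripheral marrow (4.69% of all features at that threshold) and 21 in the core (6.36%), with 0 lower, and the medians were 0.32 and 0.34 against -0.12 and -0.11 over all features. Granulocyte markers summed to 18180 to 40044 CPM in normal, 25264 to 91680 CPM in peripheral and 12899 to 24779 CPM in core Treg libraries, and macrophage markers to 5331 to 20799 CPM in peripheral and 989 to 9437 CPM in core libraries. Their part in these values was not tested. Without Treg normal replicate 3, the library with the high share, 12 members were called in peripheral marrow and 9 in the core. Leaving out the libraries with lung transcripts keeps 1 normal library, and 0 were then called at either site and the medians were -0.07 and 0.07. With those libraries alone, 1 at each late site, 43 were higher and 1 lower in peripheral marrow and 18 higher and 1 lower in the core, and with lung transcripts as a term 0 were called at either site. RPL28 was lost without normal replicate 1, 2 or 4, early replicate 1 or peripheral replicate 1 or 2 (adjusted p = 0.0634 to 0.202), and RPL19 without normal replicate 1, 2 or 4 or core replicate 2 or 3 (adjusted p = 0.0961 to 0.183). Between core and peripheral marrow limma and the other 3 tools called 0 (1.08% higher, 0.438% lower), with 4 lower at an unadjusted p under 0.05 (7.47% of all features).

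Whether the early change of a population differed from that of CD4 cells was tested directly. For granulocytes 1 of 71 members passed as more raised and 0 as less (0.246% and 0.0923% of all features). That was RPLP0, at 831 to 1838 CPM in granulocytes and 5146 to 4587 CPM in CD4 cells (difference 1.34 ± 0.30, adjusted p = 0.016). RPSA (1.44, adjusted p = 0.094) and RPS9 (0.98, adjusted p = 0.102) came next, and the median over the members was 0.58. The RPLP0 call was lost without granulocyte normal replicate 1 or 3, granulocyte early replicate 1, CD4 normal replicate 1 or CD4 early replicate 1 (adjusted p = 0.0507 to 0.0776). Without the libraries with lung transcripts, which left 1 normal CD4 library, the difference was 0.85. For CD8 cells 0 passed (0.0308% in either direction), although 53 members were lower at an unadjusted p under 0.05 (7.28% of all features) and the median was -0.94; RPS23 (-1.70) and RPL9 (-1.50) came nearest, both at an adjusted p of 0.060. DESeq2 called 15 lower there and edgeR and limma-voom 0, and limma called 6 without CD8 early replicate 1. For Treg cells limma and the other 3 tools called 0 (0% higher, 0.0923% lower; 0 at an unadjusted p under 0.05). The change from peripheral marrow to core differed from that of CD4 cells in 0 members with limma and the other 3 tools for granulocytes (0.0616% higher, 0% lower), CD8 (0.2% and 0.0308%) and Treg (0% and 0%), with 4 higher, 0, and 2 higher and 1 lower at an unadjusted p under 0.05 (3.59% of all features higher for granulocytes, 3.8% higher and 2.92% lower for Treg).

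**Figure D2:**
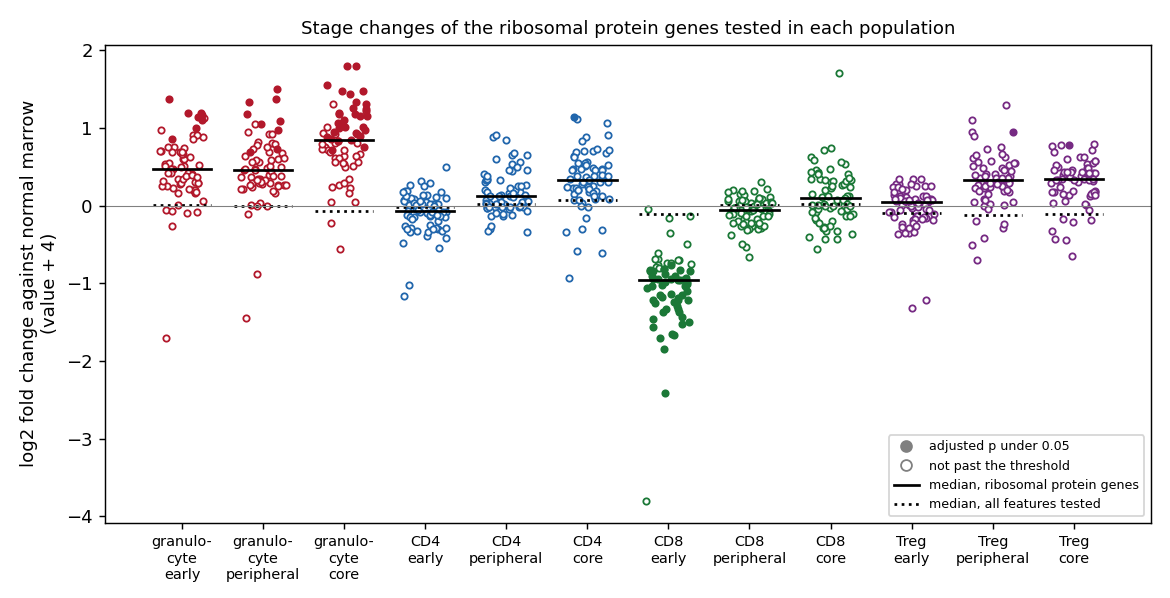
Log2 fold change against normal marrow on log2(value + 4) (y axis) for each ribosomal protein gene tested, 1 point per gene, by population and stage (x axis), with filled points at an adjusted p under 0.05. Solid bars mark the median of these genes and dotted bars that of all features tested. The early CD8 genes centre on -0.96 and the core granulocyte genes on 0.84.

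The core granulocyte and early CD8 comparisons share no library. Of the 67 members tested in both, 24 were among the 32 called higher in core granulocytes and the 51 called lower in early CD8 cells, which is 75% of the first list and 47.1% of the second. Of the 35 members not called in core granulocytes 27 were lower in early CD8 cells (77.1%), and of all 67 members 76.1% were.

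RPS2, a small subunit protein at the mRNA entry channel (chr17:24718116-24721929 in GRCm38, plus strand, the span of all annotated transcripts), varied widely between libraries of the same group. In CD4 cells it held 1458, 28.1, 1225 and 1208 CPM in normal marrow, 29.3, 2264, 1644 and 5.70 CPM at the early stage, 3277, 2453, 52.3 and 1917 CPM in peripheral marrow and 170, 2028 and 37.4 CPM in the core. Each CD4 group held libraries at both ends of this range. In CD8 cells the values were 2285, 1461, 1652 and 114 CPM in normal marrow and 943, 18.4, 11.4 and 23.1 CPM at the early stage, with 151 and 2117 CPM in peripheral marrow and 3844 and 2051 CPM in the core. Normal and early CD8 libraries overlapped.

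Treg libraries held RPS2 at 873, 27.9, 35.1 and 26.5 CPM in normal marrow, 5.97, 18.9 and 80.9 CPM at the early stage, 1385, 85.7 and 64.3 CPM in peripheral marrow and 107, 33.3 and 59.6 CPM in the core. In granulocytes it was at 3.47, 10.8, 99.7 and 222 CPM in normal marrow, 7.90, 4.48, 9.77 and 3.06 CPM at the early stage, 25.8, 15.4, 4.92 and 4.96 CPM in peripheral marrow and 2.85, 614 and 2.80 CPM in the core. Single libraries stand far above the rest in normal and peripheral Treg and in core granulocytes. Over the 55 libraries 31 lay under 100 CPM, 6 between 100 and 800 CPM and 18 at 800 CPM or more.

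High and low RPS2 libraries occurred within single mice, as numbered in the table names, and in both lung transcript classes. In mouse 6 it was high in peripheral CD4 (3277 CPM) and Treg cells (1385 CPM) and low in their core counterparts (170 and 107 CPM), while in CD8 cells of that mouse the core was high (3844 CPM) and peripheral marrow low (151 CPM). Of the 24 libraries with lung transcripts 11 lay under 100 CPM and 9 at 800 CPM or more, and of the 31 without 20 and 9. In early CD4 cells the highest library held 397 times the lowest, in normal granulocytes 64.1 times and in core CD8 cells 1.87 times, whereas the median of this ratio over the other members was 1.08 to 2.26 in the 16 groups. In 4 of the 16 groups another member had a wider ratio than RPS2: RPS6 in early granulocytes (4.89 against 3.19) and core CD8 cells (1.98 against 1.87), and RPL35A in peripheral granulocytes (11.5 against 5.25) and core Treg (6.27 against 3.21). No stage comparison called RPS2: its estimates in granulocytes were -1.71 ± 1.2 (adjusted p = 0.60), -1.44 and -0.23 for the early, peripheral and core groups.

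**Figure D3:**
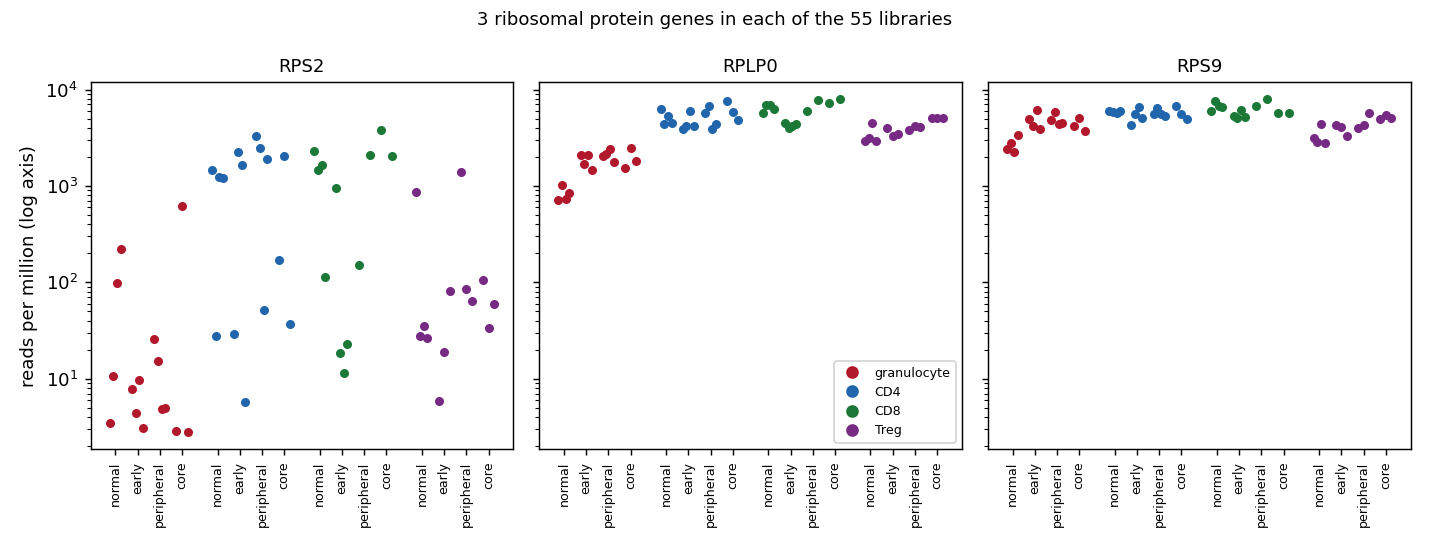
CPM (y axis, log scale) of RPS2, RPLP0 and RPS9 in each library, by population (colour) and stage (x axis), 1 point per library. RPS2 spans 2.80 to 3844 CPM with high and low libraries inside single groups, while RPS9 stays between 2278 and 7982 CPM.

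Pooled over the groups RPS2 had the widest spread of the members. Over the 65 members with a mean value of at least 50, the pooled within-group SD of log2(value + 4) had a median of 0.37 (39 residual degrees of freedom), against 0.38 for the other features of that level, and 47 members lay below the median of their 100 nearest features in level. RPS2 had an SD of 2.22, rank 4 of 986 features. The next were RPL3 (0.71), RPS6 (0.69), RPS4X (0.65) and RPL39 (0.52), with RPL35A, under that level at a mean value of 42.4, at 0.99, and the lowest were RPS9 (0.24), RPL10, RPL37 and RPLP0 (each 0.28) and RPS13 (0.30). RPL3 owed part of its spread to core granulocytes, where it held 2.85, 434 and 227 CPM in the 3 libraries, and RPS2 was low in the first of these as well. The rank 1 feature, GAPDH, a glycolytic enzyme often used as a reference, had an SD of 2.80.

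Copies of the transcript elsewhere in the genome were counted for each member as the share of 50-base words in the last 300 bases of its transcript that also occur in another annotated gene (GENCODE vM21). For RPS2 it was 78.1%, shared with 51 genes, all pseudogenes, and for GAPDH 82.9%, shared with 98 genes of which 96 are pseudogenes. The median over the 65 members was 55.8%, against 0% over 918 other genes, of which 3.49% shared 50% or more. RPL10 and RPL9, both at 100%, had no wide spread (SD 0.28 for RPL10). The 34 members with at least 50% shared had a median SD of 0.39 and the others 0.35. No source used here says how reads with several matches were treated, so the levels of these members are uncertain, and the part of the copies in the spread of RPS2 was not tested.

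**Figure D4:**
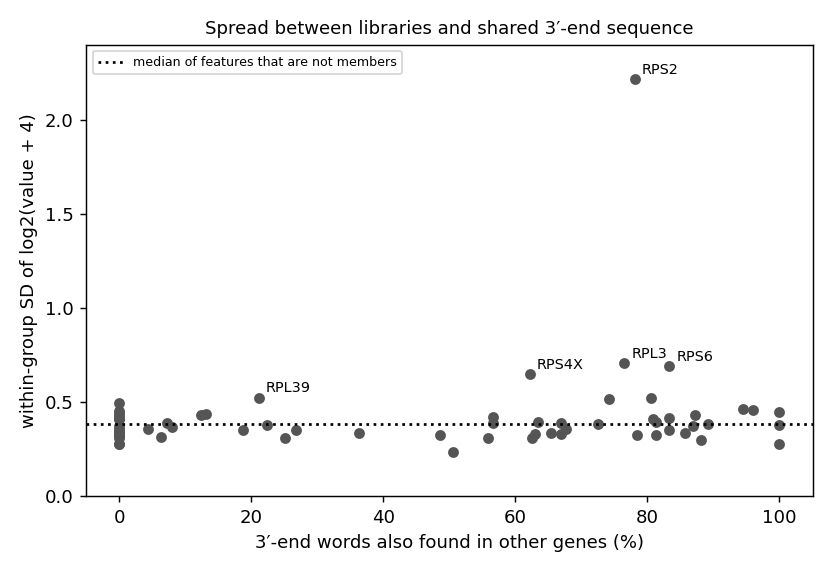
Pooled within-group SD of log2(value + 4) (y axis) against the share of 3′-end 50-base words also found in other genes (%, x axis), 1 point for each of the 65 ribosomal protein genes with a mean value of at least 50. The dotted line is the median of the other features. RPS2 stands at 2.22, and the next member at 0.71.

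The genes whose deviations from their group means were most like those of RPS2 were named by Pearson's r over the 55 libraries, which share depth and scaling factor across genes. Among members these were RPS12 (0.46), RPL13 (0.41), RPL38 (0.38), RPS3 (0.35) and RPS23 (0.35), with a median of 0.21 over the members against 0.0018 over the other features. Among 3029 features compared, MED30 (0.62), EIF1B (0.52), RGCC (0.47), NDUFB5 (0.47) and PPT2 (0.46) were nearest, and GAPDH stood at 0.086.

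Several members were barely seen. RPL10L, a testis paralogue of RPL10, and RPL26 had 0 reads in all libraries, RPL30 had 9, RPL39L, another paralogue known from testis, 16, RPS15A 20, RPL21 39, RPL34 82, RPS27 97, RPL15 189, RPL5 258, RPL29 501 and RPL22 546. These and RPL3L make 13 members with a mean under 35 CPM, and 9 of them did not enter the fit over all populations. Their low values are as deposited and were not compared with the other members, since the counting of repeated sequence is not given.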

How the data were processed

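Per the labels, total RNA of sorted cells was made into MARS-seq libraries. The submitters' processing notes name fastp 0.20.0 for trimming and STAR 2.6.0c for alignment, with GRCm38 (mm10) as the build, and DESeq2 1.30.1. No source used here says how molecular tags, or reads that match several places, were treated. The deposited values are a signal: the authors divided the whole reads of each library by a single factor, so that 100% of values turn into whole reads, to within 0.01, when that factor is undone. The 15734 features include 5 with no symbol (at most 0.0124% of a library) and 1 that repeats a symbol, which was merged. Features carry human Ensembl IDs and symbols, and positions were looked up for the mouse gene with the same symbol.

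limma 3.58.1 (R 4.3.3), with trend and robust variance, was run on log2(value + 4). A feature entered when enough libraries reached a value of 10, namely the size of the smallest group of a population, or 2 libraries in the fit over all populations. Benjamini-Hochberg adjustment covered all features tested, with a threshold of 0.05. Fold changes are on that log2 scale, which understates changes of low genes. CPM are recovered reads scaled to 1000000 per library. There were 34 comparisons over 16 groups. This limma test was planned for scaled values, and a count test as the main test only for raw counts. edgeR 4.0.16, DESeq2 1.42.0 and limma-voom were run on the recovered reads as alternatives. The main script was tested on simulated data. Values after ± are the SD between libraries or the SE of the limma fit.

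Genes named in the text are RPS2, RPSA, the stalk proteins, RPS6, RPL10, RPL22, RPS4X and the paralogues ending in L, the 5 members with the smallest p in each direction of a comparison, the 5 widest and narrowest in spread, up to 4 called genes of each pathway list, and the 5 members and 5 others most like RPS2. RPL35A, and RPL3 and the remaining called members in granulocytes, were named after their values were seen. The members and gene lists were chosen with earlier results of these data known. As planned, no pairing was used in the main fit, since a mouse number was taken as known only for late libraries. Residuals of late libraries from 1 mouse correlated at -0.34 to 0.51, with -0.34 the only negative value. The mouse numbers in the table names also recur across the populations of a stage. The fit over all populations treated such libraries as independent. The result of 1 listed gene is not reported here.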

Additional observations from a re-analysis of the deposited data

Results flagged for a closer look

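Dixon's test at the 95% level was applied 45 times, to 5 quantities in each of 9 groups of 4 libraries, and chance alone marks about 1 in 20. In normal Treg cells replicate 3 stood above the other 3 libraries in the share of ribosomal protein reads (24.0%), in RPLP0 (4480 CPM) and in RPSA (8788 CPM). In the same group replicate 1 stood above the rest in RPS2 (873 CPM). In early CD8 cells replicate 1 stood above the rest in RPS2 (943 CPM). In early CD4 cells replicate 3 stood above the rest in RPLP0 (6046 CPM) and RPSA (11714 CPM), and in peripheral CD4 cells replicate 2 did so in RPS9 (6487 CPM).

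The early change of RPLP0 differed between granulocytes and CD4 cells, by 1.34 on the log2 scale (limma interaction, adjusted p = 0.016). It was the only member to pass that test. The call was lost without any of 5 single libraries. Without the libraries with lung transcripts, which left 1 normal CD4 library, the difference was 0.85.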

How the results depend on the processing

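Counts of ribosomal protein genes called and the ratios of their shares were recomputed 567 times without leaving out single libraries. Of these values 487 stayed close to those above (counts within 1.5 times, ratios within the spread between libraries). A comparison with 0 calls both before and after also counts as close. This total is therefore no measure of how stable the comparisons with calls are. Of the recomputed values of single genes 893 kept their direction and call, 55 kept the direction and lost the call, and 1 reversed: RPS9 in early granulocytes against CD4 cells, which was -0.19 on CPM. With single libraries left out, 541 values of single genes kept direction and call and 61 lost the call. Some alternatives were chosen after seeing the data. They are those that added lung transcripts as a term or kept only the libraries over the lung transcript limit, and the one without CD8 early replicate 3. The least deep library held 43224 reads, and genes under about 35 CPM could not be followed in it.

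With a pseudocount of 1 late peripheral Treg had 0 calls against normal, and with 16 the CD8 difference from CD4 at the early stage had 3. Without a filter on low values early granulocytes had 5, core granulocytes 20 and core Treg 2 against normal, CD8 against CD4 in peripheral marrow had 1 and the CD8 difference from CD4 between the late sites 1. With a mean value of at least 50, core CD4 had 3, peripheral Treg 0 and core Treg 4 against normal, CD8 against CD4 in normal marrow 37 and the early CD8 difference 8. Under TMM scaling Treg against CD4 in normal marrow had 17 and the early granulocyte difference 4, and with factors computed without ribosomal protein genes these were 14 and 3, with 0 for core CD4 and 0 for core Treg. On CPM early granulocytes had 5, peripheral granulocytes 19, CD8 against CD4 in normal marrow 5, and Treg against CD4 20 in normal and 1 in early marrow. Of all 3808 features CPM called 98 higher and 63 lower in early and 240 and 86 in peripheral granulocytes. edgeR gave 0 for peripheral Treg and 9 for CD8 against CD4 in normal marrow. DESeq2 gave 15 for early and 14 for peripheral granulocytes, 2 for core CD4, and 3 for peripheral and 2 for core Treg. It gave 1 for CD8 against CD4 in early marrow, and 2 and 15 for the early granulocyte and CD8 differences. Of all 3808 features it called 168 higher and 103 lower in early granulocytes (116 and 66 in the main fit). In peripheral granulocytes it called 238 higher and 258 lower (146 and 164 in the main fit). limma-voom gave 5 for early granulocytes, with 99 of all features higher and 90 lower, and 0 for peripheral Treg. Calls over all features moved with the setting as well, so these counts of members alone show no shift particular to the members.

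Titles number the libraries 1 to 4 in each group, and with this number as a replicate block core granulocytes had 20 calls, core CD4 2, peripheral Treg 0, core Treg 0 and the early CD8 difference 1. Blocking the 2 late sites by mouse left 0 calls between them in each population. Residuals of libraries from 1 mouse correlated at -0.34, 0.51 and 0.19 in granulocytes, 0.28, 0.22 and 0.29 in CD4, 0.11 in CD8 and 0.07, 0.15 and 0.24 in Treg. The CD8 value is the same for both mice because each late CD8 group held 2 libraries. The titles do not say that a number pairs libraries of different stages.

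Without the libraries with lung transcripts the calls against normal were 3 in early and 21 in peripheral granulocytes, 0 in core CD4, 0 in early CD8, 0 in peripheral and 0 in core Treg. Core against peripheral granulocytes then had 3, CD8 against CD4 in normal marrow 0, Treg against CD4 0 in normal and 1 in peripheral marrow, granulocytes against CD4 in the core 34, and the granulocyte differences from CD4 0 at the early stage and 1 between the late sites. With those libraries alone the calls against normal were 3, 0 and 10 in early, peripheral and core granulocytes, 15 in core CD4, and 1, 44 and 19 in early, peripheral and core Treg. Core against peripheral Treg had 23, CD8 against CD4 in normal marrow 26, Treg against CD4 32, 1 and 3 in normal, peripheral and core marrow, granulocytes against CD4 at the early stage 41 and the early granulocyte difference 5. With lung transcripts as a term the calls were 21 in early and 24 in peripheral granulocytes, 2 in early CD8, 0 in peripheral and 0 in core Treg and 26 for CD8 against CD4 in normal marrow. Some comparisons could not be fitted on either class of libraries because a group was empty. Without libraries under 100000 reads early CD8 had 28 calls, peripheral Treg 4 and core Treg 0. The ratio of ribosomal protein shares of CD8 to CD4 in normal marrow was 1.66 on the sum of deposited values. That of granulocytes to CD4 was 0.258 on that sum and 0.213 without the 20 highest other features. That of Treg to CD4 was 0.883 without the libraries with lung transcripts, at 1 library in each group. The cause of these shifts was not tested.

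With single libraries left out, the calls against normal ranged from 1 to 13 in early, 2 to 15 in peripheral and 13 to 37 in core granulocytes, 0 to 3 in core CD4, 19 to 57 in early CD8, 0 to 12 in peripheral Treg and 0 to 9 in core Treg. Core against peripheral CD4 ranged from 0 to 1. Against CD4 they ranged from 3 to 18 for CD8 in normal and 0 to 1 in early marrow, from 3 to 17 for Treg in normal and 0 to 1 in peripheral marrow, and from 63 to 65, 61 to 64, 64 to 68 and 54 to 63 for granulocytes in the 4 stages. The early granulocyte difference ranged from 0 to 3 and the early CD8 difference from 0 to 6. The remaining comparisons stayed at 0 calls. The share ratios kept their direction, at 1.38 to 1.63, 1.64 to 1.93 and 1.54 to 2.19 for early, peripheral and core granulocytes, 0.568 to 0.641 for early CD8, 1.38 to 1.43 for CD8 to CD4, 0.608 to 0.709 for Treg to CD4 and 0.134 to 0.144 for granulocytes to CD4.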
